A study of Mus musculus with 10 samples.

Results

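Jund, Ccn2, Tsc22d3, Errfi1, Klf13, Nfkbia and Stat3 are 7 genes that answer within hours to growth factors, cytokines, stress or glucocorticoids. They were chosen by gene symbol, current or older (Ccn2 was formerly Ctgf), and they are 7 of the 8738 named genes with values, read by 8 of the array's 10012 probes: 1 each, and 2 for Stat3. All 8 probes had values on every array, and all passed the filter that left 7422 of the 9897 probes with values for testing. The RNA came from the testis of male BALB/c mice aged 9 weeks, and all 15 animals were injected. The control group received dimethylsulfoxide and PBS, the carrier that every group shared, and was killed at 10 h. The other groups received 60 µg of trichostatin A (TSA), an inhibitor of histone deacetylases, in 1 subcutaneous injection and were killed at 2.5, 5, 7.5 or 10 h. RNA from 3 mice made up each group's pool, which was hybridised to 2 CodeLink arrays as technical duplicates. Each group is therefore 1 pool (n = 1), and differences between animals were not measured. Since whole testis was used, fewer cells of a type and less RNA per cell cannot be told apart.

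Immediate early genes are transcribed within minutes of a stimulus because the proteins that switch them on are already present in the cell. Glucocorticoids act through the glucocorticoid receptor, a nuclear receptor held by chaperones until hormone binds, which then raises genes such as Tsc22d3 (GILZ) and Nfkbia. In the testis the receptor is known from Leydig, peritubular and some germ cells, and stress hormones are known to restrain Leydig cell steroid synthesis. Among the members, Jund, Klf13 and Stat3 are transcription factors, Nfkbia and Errfi1 are feedback inhibitors of NF-kB and of the EGF receptor, Tsc22d3 carries glucocorticoid effects, and Ccn2 is a secreted matrix protein.

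Promoter windows were taken from RefSeq (build GRCm38.p6), which listed 9 windows for 6 of the 7 members. Only the 250 bases before the annotated gene start were used. The windows shown belong to Tsc22d3, a glucocorticoid target, and to Klf13, which stood highest at 2.5 h. The others belong to Nfkbia, which crossed the control level over time, and to Stat3, which stood lowest at 5 h. Capitals mark matches on either strand to the GC box (GGGCGG), the glucocorticoid receptor hexamer (TGTTCT), the TEAD site (GGAATG) and the NF-kB site, and each sequence runs 5′ to 3′ on the strand of its gene. No match said only that the letters were not in that window.
Tsc22d3, window at chrX:140600523-140600772, minus strand: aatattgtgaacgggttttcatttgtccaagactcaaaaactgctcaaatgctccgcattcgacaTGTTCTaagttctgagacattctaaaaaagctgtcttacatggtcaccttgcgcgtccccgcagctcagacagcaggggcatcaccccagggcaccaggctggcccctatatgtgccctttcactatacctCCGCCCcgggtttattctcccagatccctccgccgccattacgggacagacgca
Klf13, window at chr7:63938916-63939165, minus strand: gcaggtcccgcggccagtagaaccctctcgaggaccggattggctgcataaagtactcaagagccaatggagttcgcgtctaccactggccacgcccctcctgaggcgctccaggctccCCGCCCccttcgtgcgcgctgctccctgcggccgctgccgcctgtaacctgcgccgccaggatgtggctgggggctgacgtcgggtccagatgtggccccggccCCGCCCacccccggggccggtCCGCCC
Nfkbia, window at chr12:55492648-55492897, minus strand: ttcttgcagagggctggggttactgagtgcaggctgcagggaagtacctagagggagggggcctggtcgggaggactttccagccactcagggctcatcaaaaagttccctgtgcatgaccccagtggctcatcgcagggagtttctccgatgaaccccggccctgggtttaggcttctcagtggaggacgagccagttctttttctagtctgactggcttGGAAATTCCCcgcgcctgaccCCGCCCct
Stat3, window at chr11:100939541-100939790, minus strand: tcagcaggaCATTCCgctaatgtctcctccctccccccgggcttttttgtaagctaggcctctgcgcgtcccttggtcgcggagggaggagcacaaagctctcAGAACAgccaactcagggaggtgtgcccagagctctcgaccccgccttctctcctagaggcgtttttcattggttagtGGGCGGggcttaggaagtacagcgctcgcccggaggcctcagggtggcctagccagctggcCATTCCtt

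A match to the NF-kB site began 29 bases before the start of Nfkbia, and 7.25% of the 32851 RefSeq windows of this length held such a match. The glucocorticoid hexamer was found in this window of Tsc22d3, 185 bases before the start, and in that of Stat3, 147 bases before it, while 16.1% of all windows held it. Tsc22d3 had 3 windows, of which only the printed 1 held the hexamer. Another of them held a STAT match, 207 bases before the start. Klf13 had 3 GC boxes and the other printed windows 1 each, against 32.7% of all windows with at least 1. Stat3 also held 2 TEAD sites, and 12.6% of all windows had at least 1. Of the sites searched and not found in the printed windows, AP-1 (TGANTCA) was in 6.75% of all windows, the cyclic AMP element (TGACGTCA) in 1.55%, the STAT site (TTCNNNGAA) in 7.02% and the CArG box in 1.47%. The cyclic AMP element was in 1 window of Errfi1, 51 bases before the start. These are matches of letters in reference sequence and show no binding.

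Duplicate arrays correlated across tested probes with r from 0.995 to 0.998. Germ cell markers were bright in every pool (Ldhc 195 to 219, Tnp1 172 to 224), as was the Leydig enzyme Cyp17a1 (86.0 to 104), while the leukocyte markers Ptprc (0.0429 to 0.0824) and Adgre1 (0.026 to 0.0782) were too dim to be tested. The 5 h pool stood apart. Its summed intensity over 40 measured liver markers was 259.0 to 261.7 on its 2 arrays, against 28.13 to 31.52 on the other 8, and 20 of the 23 tested liver genes were at least 2-fold higher there. Ttr, Apoa1 and Fabp1, defining liver genes, were at 0.098, 0.0744 and 0.352 in the control pool and at 19.0, 28.5 and 32.9 at 5 h. Liver also transcribes the 7 genes described here, and the part of liver RNA in their 5 h values was not tested. The summed spermatocyte markers were at 440.4 to 447.1 in the control and 392.4 to 423.6 in the TSA pools, the spermatogonial markers at 75.68 to 79.68 and 61.44 to 68.85, and the Leydig markers highest at 2.5 h (187.4 to 206.0, control 161.5 to 168.1). Of the defining spermatocyte markers, Pgk2 (91.2 in the control, 63.8 to 73.3 after TSA) and Sycp3 (31.7, 22.5 to 31.4) were lower and Ldhc (195, 211 to 219) was higher. Of the defining spermatogonial markers, Ddx4 (20.1, 15.9 to 19.2) was lower, while Dazl (4.48) was at 4.99 at 2.5 h and 3.65 to 4.45 later. At 2.5 h the Leydig markers Cyp17a1 (104, control 86.0) and Cyp11a1 (4.76, 3.66) were higher and Star (3.03, 3.23) was lower. The summed spermatid markers were at 905.8 to 935.7 in the control and 911.3 to 1018 in the TSA pools, and the Sertoli markers at 49.05 to 54.82 and 50.03 to 60.49. The peritubular markers were at 21.34 to 22.28 in the control and lowest at 5 h (17.0 to 17.5), and the 13 measured macrophage and leukocyte markers were at 12.17 to 14.21 in the control and 12.45 to 15.75 in the TSA pools. The endothelial markers were at 4.834 to 4.852 in the control and 5.323 to 6.314 in the TSA pools. Of the defining ones only Kdr was bright enough to be tested (0.502 in the control, 0.407 to 0.504 after TSA). The erythroid markers were at 35.89 to 39.02 and 34.61 to 37.39, and the epididymis markers at 8.964 to 9.605 and 8.915 to 10.18. The part of these shifts in the values below was likewise not tested.

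None of the 8 probes passed a test. Setting the 4 TSA pools against the control pool, limma (a linear model with moderated variances, p-values adjusted by Benjamini and Hochberg across the 7422 probes) called 0 of 8, where it called 3.53% of all tested probes, and adjusted p ranged from 0.117 to 0.655. At unadjusted p under 0.05 it counted 3 of 8 (Jund and both Stat3 probes), against 28.3% of all probes. The linear trend over hours, with the control at 0 h, called 0 of 8 by the same limma test, where 2.01% of all probes were called, with 2 of 8 at unadjusted p under 0.05 (Jund and Stat3 probe 9982) against 25.1%. A size rule of at least 2-fold with both TSA arrays beyond both control arrays met 0 of 8 at each time, against 0.916%, 1.55%, 1.91% and 2.67% of all probes at 2.5, 5, 7.5 and 10 h. The 95% intervals of the TSA differences ran from -0.88 to 0.71 on the log2 scale, within 2-fold for each member. The lone control pool was taken to vary like the TSA pools, and an exact permutation of 1 pool against 4 cannot give a p below 0.2.

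**Figure D1:**
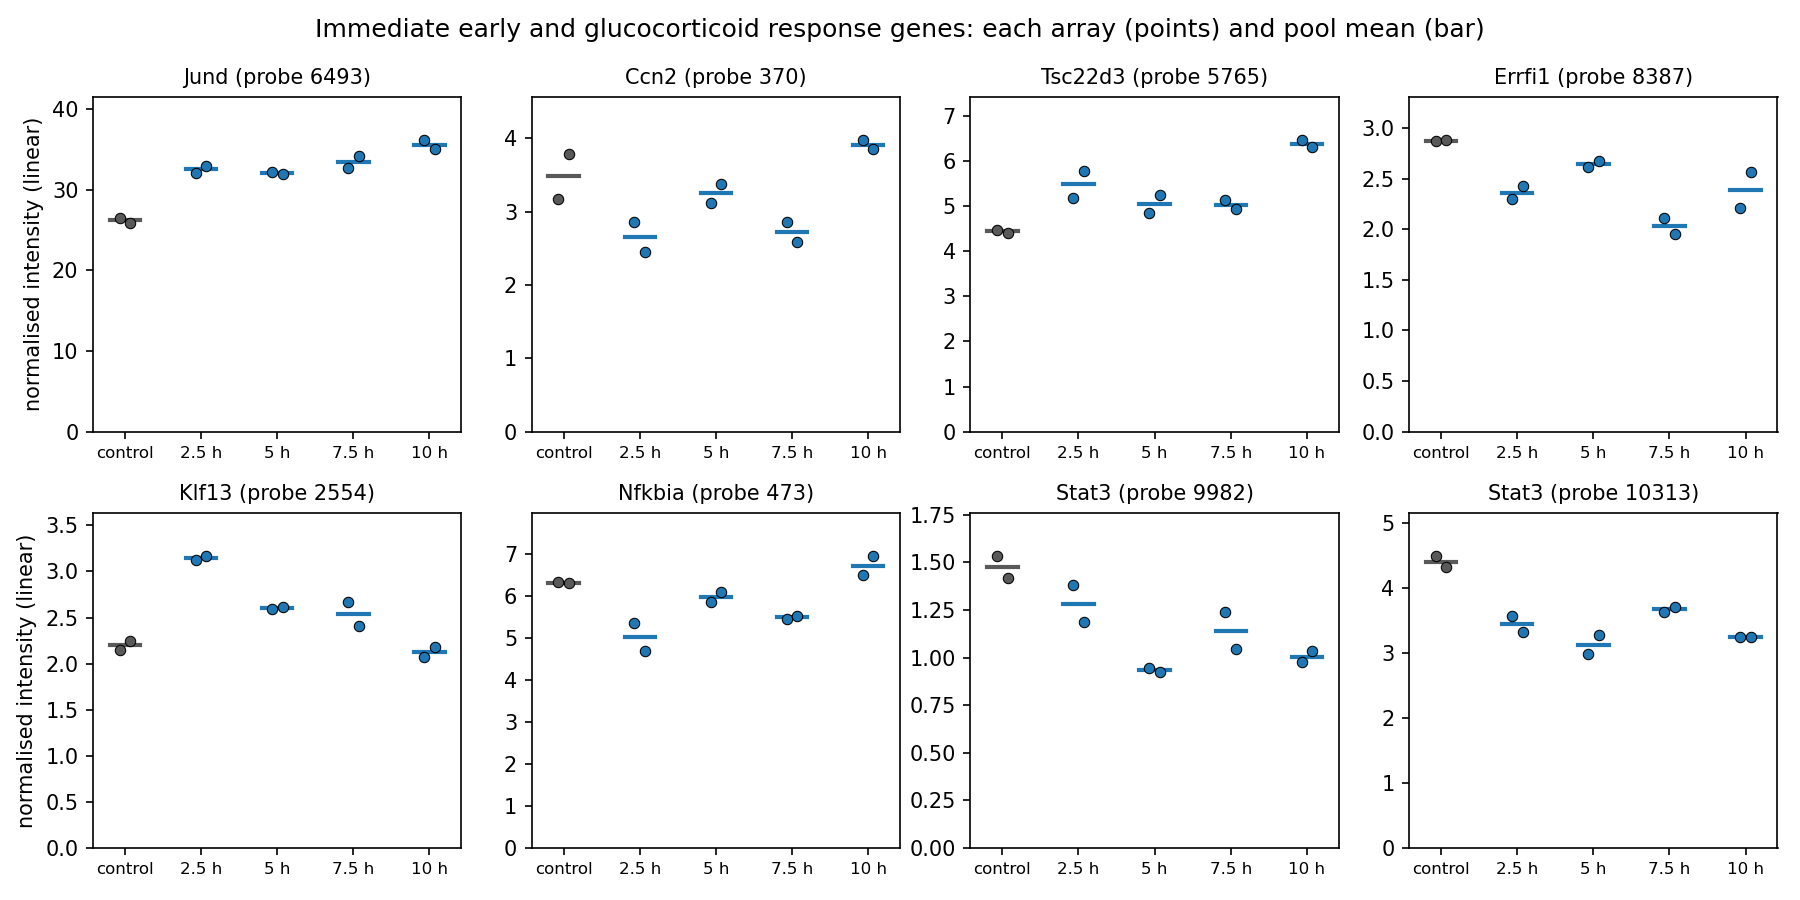
Normalised intensity (linear axis from 0) of the 8 probes by pool, with a point for each array and a bar for the mean of the pool. Jund stood between 31.9 and 36.1 on the 8 TSA arrays and at 25.9 and 26.5 on the control arrays, while Klf13 was highest at 2.5 h and back at its control level at 10 h.

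Without a limit on size, arrays of a TSA pool often lay beyond both control arrays, for members and for the rest alike. At 2.5 h 3 of 8 probes lay above (35.5% of all probes) and 5 below (39.8%). At 5 h 3 lay above (35.8%) and 4 below (42.8%), and at 7.5 h 3 above (36.5%) and 5 below (38.6%). At 10 h 4 lay above (39.8%) and 3 below (38.6%). Jund and Tsc22d3 lay above at all 4 times, as did 22.2% of all probes, and Errfi1 and both Stat3 probes below at all 4, as did 23% (the 4 comparisons share the control pool). The median absolute log2 fold of the 8 probes was 0.32, 0.21, 0.31 and 0.36 at the 4 times, against 0.21, 0.22, 0.24 and 0.27 over all tested probes. At this number of probes such shares are no result about the members.

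**Figure D2:**
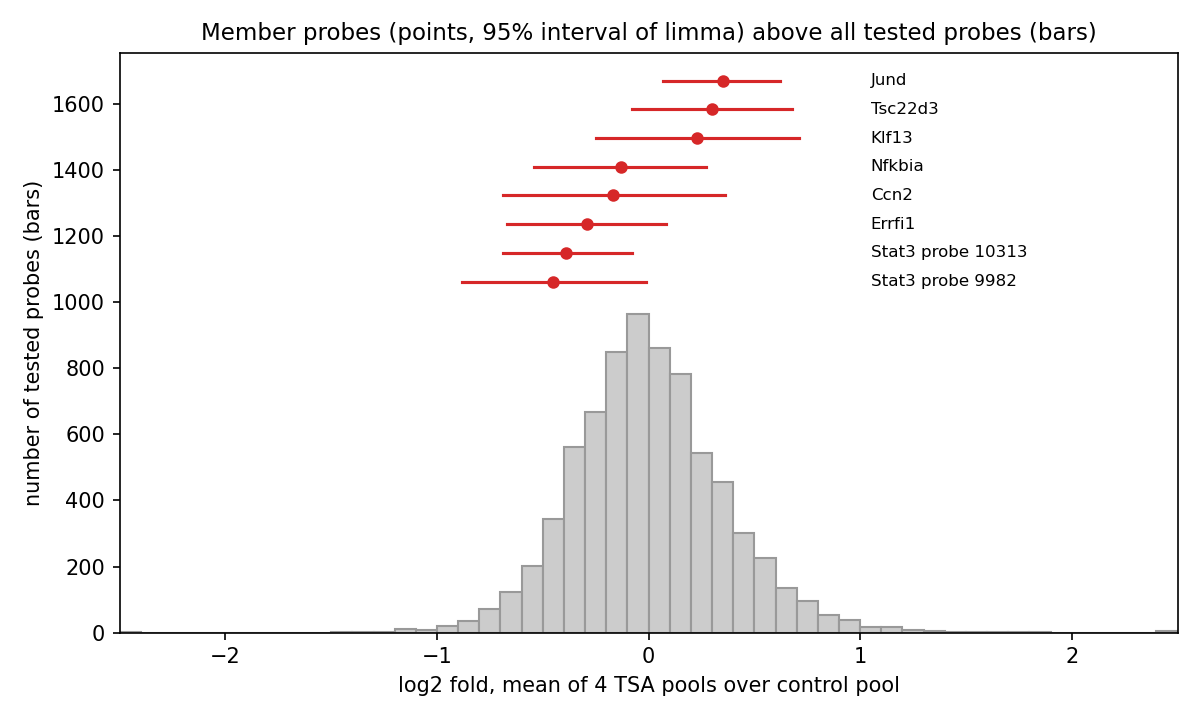
Log2 fold of the 4 TSA pools over the control pool for each member probe (points, with the 95% interval of limma), above the number of all tested probes at each fold (grey bars, the outermost holding all larger folds). The members run from -0.45 for Stat3 probe 9982 to 0.35 for Jund, inside the bulk of the probes.

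Jund encodes a subunit of AP-1 that, unlike other Jun proteins, is present in resting cells. Its probe (6493, chromosome 8) read 26.5 and 25.9 in the control, 32.1 and 33.0 at 2.5 h, 32.1 and 31.9 at 5 h, 32.7 and 34.2 at 7.5 h, and 36.1 and 35.0 at 10 h. Every TSA array was above both control arrays, and the 10 h arrays were above all others, while the 2.5 h arrays overlapped those at 5 h and those at 7.5 h. The 10 h pool was 1.36-fold above the control (log2 fold 0.44 ± 0.029, SE from duplicate arrays) and the other times 1.22- to 1.28-fold. Over the 4 TSA pools the log2 fold was 0.35 ± 0.11, with a 95% interval of 0.07 to 0.62, and higher in 4 of 4 pools, but it did not pass limma (adjusted p = 0.117). Its slope was 0.0368 ± 0.015 log2 units per hour (limma, adjusted p = 0.18), and 0.018 without the control pool. The call turned with the model: limma gave an adjusted p of 0.0293 with the pool as a random block, where 14.1% of all probes were called, and 0.0373 with eBayes with trend and robust, where 10.7% were. The random block fit takes its degrees of freedom from the 10 technical arrays.

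Klf13, a zinc finger factor that binds GC-rich promoters and is known from T cells, followed another course. Its probe (2554, chromosome 7) read 2.15 and 2.24 in the control and 3.13 and 3.16 at 2.5 h. It then read 2.59 and 2.61 at 5 h, 2.67 and 2.40 at 7.5 h, and 2.07 and 2.18 at 10 h. The 2.5 h arrays were above all others, the 5 and 7.5 h arrays overlapped each other and lay above the control, and the 10 h arrays overlapped the control. The 2.5 h pool was 1.43-fold above the control (0.52 ± 0.032), the largest upward log2 fold of a member at that time, and 5 h, 7.5 h and 10 h stood at 0.24 ± 0.032, 0.21 ± 0.082 and -0.05 ± 0.049. Over the 4 pools the log2 fold was 0.23 ± 0.20 (limma, adjusted p = 0.491), and 0.134 without the 2.5 h pool. Centring each array by the order of probe IDs turned the 10 h value to 0.0758 and moved that at 7.5 h to 0.321.

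Stat3 transmits signals of interleukin 6, leukaemia inhibitory factor and other cytokines to the nucleus, and was read by probes 9982 and 10313 (chromosome 11). Probe 10313 read 4.49 and 4.33 in the control, 3.57 and 3.33 at 2.5 h, 2.99 and 3.27 at 5 h, 3.64 and 3.72 at 7.5 h, and 3.24 and 3.25 at 10 h. Probe 9982 read 1.53 and 1.42 in the control, 1.38 and 1.19 at 2.5 h, 0.946 and 0.926 at 5 h, 1.24 and 1.04 at 7.5 h, and 0.977 and 1.03 at 10 h. On both probes every TSA array was below both control arrays, the 5 h pool was lowest and the 10 h pool next (the arrays of these pools overlapped on probe 10313), and the probes differed in the order of the 2.5 and 7.5 h pools. At 5 h the log2 folds were -0.65 ± 0.057 for probe 9982 and -0.50 ± 0.072 for probe 10313. Centring by the order of probe IDs moved probe 10313 to -0.265 at 5 h and to -0.233 over the 4 pools (limma, adjusted p = 0.212). Over the 4 pools they were -0.45 ± 0.18 (95% interval -0.88 to -0.01) and -0.39 ± 0.13 (-0.69 to -0.08), lower in 4 of 4 pools, with limma adjusted p of 0.167 and 0.118. Without the 5 h pool, which held the liver transcripts, they were -0.377 and -0.352 (limma, adjusted p = 0.243 and 0.202). With the pool as a random block, limma gave probe 10313 an adjusted p of 0.0414 and probe 9982 one of 0.113, where 14.1% of all probes were called. That fit takes its degrees of freedom from the 10 technical arrays.

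Nfkbia encodes IkB-alpha, which holds NF-kB in the cytoplasm and is itself a target of NF-kB and of the glucocorticoid receptor. Its probe (473, chromosome 12) read 6.33 and 6.29 in the control, 5.36 and 4.69 at 2.5 h, 5.86 and 6.09 at 5 h, 5.46 and 5.51 at 7.5 h, and 6.48 and 6.93 at 10 h. No pools next to each other in order overlapped: 2.5 h was lowest, then 7.5 h, 5 h, the control and 10 h. The log2 folds were -0.33 ± 0.096 at 2.5 h, -0.08 ± 0.028 at 5 h, -0.20 ± 0.0085 at 7.5 h and 0.09 ± 0.049 at 10 h. Over the 4 pools it was -0.13 ± 0.17 (limma, adjusted p = 0.642), and leaving out the pool of 2.5 h gave -0.0649, that of 10 h -0.205. The 10 h value was 0.0391 with its first array alone and 0.136 with its second alone.

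Ccn2, connective tissue growth factor, is an immediate early target of TGF-beta and of YAP. Its probe (370, chromosome 10) read 3.18 and 3.79 in the control, 2.87 and 2.45 at 2.5 h, 3.12 and 3.37 at 5 h, 2.86 and 2.59 at 7.5 h, and 3.98 and 3.85 at 10 h. The control arrays lay further apart than those of any other member, with an SD of 0.18 on the log2 scale, and overlapped the 5 h arrays. The order of the pools was that of Nfkbia, with 2.5 h and 7.5 h low (log2 folds -0.39 ± 0.17 and -0.35 ± 0.15) and 10 h high (0.17 ± 0.13). Over the 4 pools the log2 fold was -0.17 ± 0.22 (limma, adjusted p = 0.655). It was -0.292 without the first control array and -0.0387 without the second, between -0.278 and -0.0907 without 1 TSA pool, and -0.268 after centring by the order of probe IDs. The 10 h fold was 0.0463 without the first control array, 0.30 without the second and 0.0134 after that centring, and the 5 h fold turned to 0.0305 without the second control array.

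Tsc22d3 encodes GILZ, a leucine zipper protein that glucocorticoids raise in many cell types and that restrains NF-kB and AP-1. Its probe (5765, chromosome X) read 4.46 and 4.41 in the control, 5.18 and 5.78 at 2.5 h, 4.84 and 5.25 at 5 h, 5.13 and 4.93 at 7.5 h, and 6.46 and 6.31 at 10 h. All TSA arrays were above the control, and the 10 h arrays were above all others. The 5 h arrays overlapped those at 2.5 and 7.5 h, while both 2.5 h arrays were above both 7.5 h arrays. The log2 fold was 0.53 ± 0.018 at 10 h, a 1.44-fold higher level and the largest upward fold of a member at that time, and 0.18 ± 0.029 to 0.30 ± 0.08 earlier. Over the 4 pools it was 0.30 ± 0.16 (limma, adjusted p = 0.263), and the slope was 0.0372 ± 0.017 per hour (limma, adjusted p = 0.233), and 0.0172 without the 10 h pool. The control was killed at the same hour after injection as the 10 h pool, and for the pools killed earlier, hours after TSA and hours after the injection itself cannot be told apart.

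Errfi1 (Mig6) is an immediate early gene whose protein binds and silences the EGF receptor. Its probe (8387, chromosome 4) read 2.87 and 2.88 in the control, 2.30 and 2.42 at 2.5 h, 2.62 and 2.67 at 5 h, 2.11 and 1.95 at 7.5 h, and 2.21 and 2.57 at 10 h. All TSA arrays were below both control arrays, 7.5 h was lowest, and the 2.5 and 10 h pools overlapped. The log2 fold was -0.50 ± 0.059 at 7.5 h, a control level 1.42-fold above that pool, and -0.12 ± 0.015 to -0.28 ± 0.038 at the other times. Over the 4 pools it was -0.29 ± 0.16 (limma, adjusted p = 0.264). The 10 h fold was -0.164 with the second 10 h array alone.

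**Figure D3:**
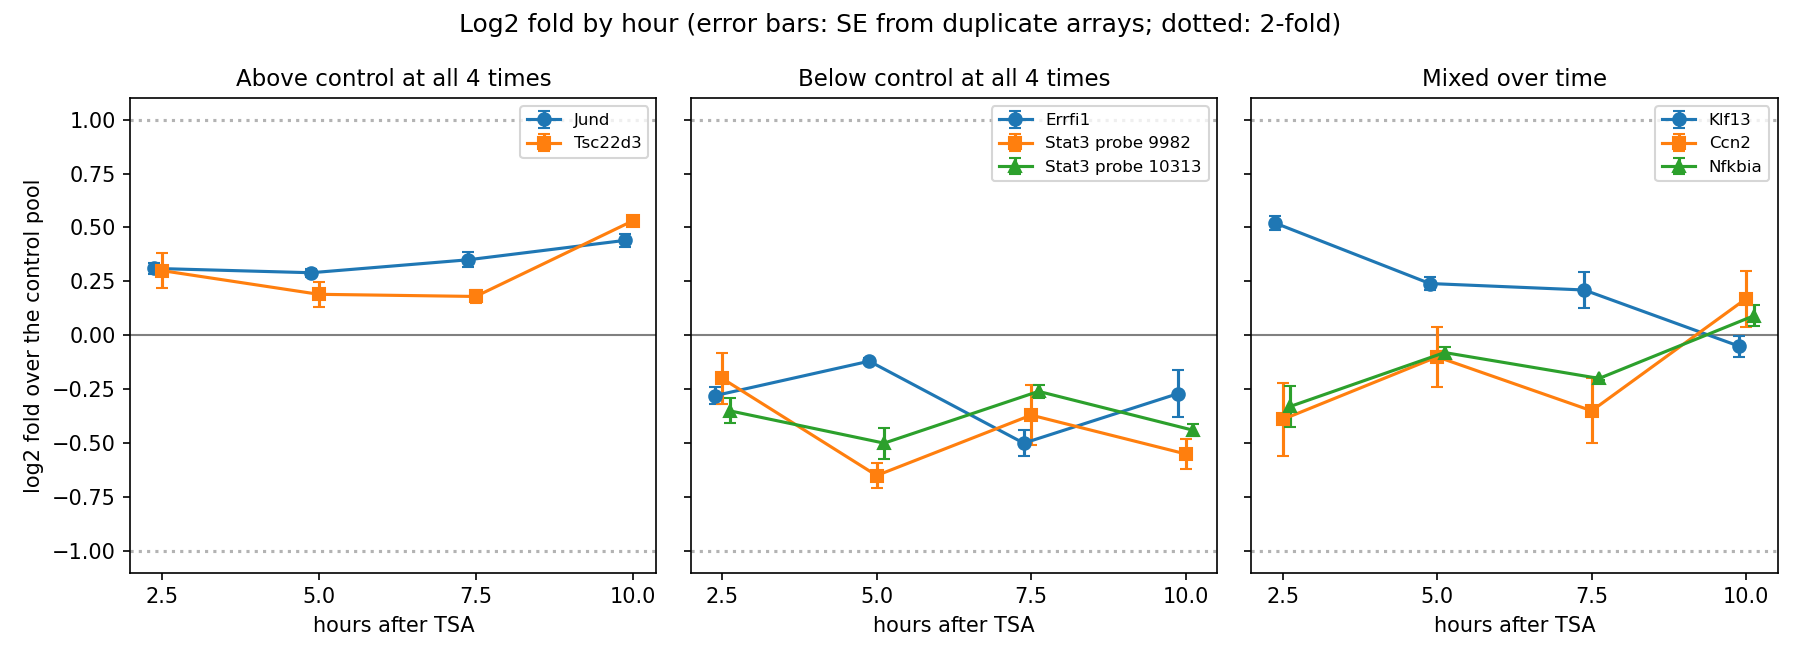
Log2 fold over the control pool by hours after TSA, with the SE from duplicate arrays and dotted lines at 2-fold. Jund and Tsc22d3 lie above 0 and Errfi1 and both Stat3 probes below 0 at all 4 times, while Klf13 runs down from 0.52 to -0.05. Ccn2 and Nfkbia lie at -0.39 and -0.33 at 2.5 h and at 0.17 and 0.09 at 10 h. Between these, both are nearer 0 at 5 h (-0.10 and -0.08) than at 7.5 h (-0.35 and -0.20).

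Of the glucocorticoid targets, both arrays of Tsc22d3 were above and both of Nfkbia below the control arrays at 2.5, 5 and 7.5 h, and no difference between genes was tested. Between the 2.5 and 10 h pools, which share no control, both 10 h arrays were above both 2.5 h arrays for 4 of 8 probes, against 37.6% of all probes. These were Ccn2 (1.48-fold, log2 difference 0.56 ± 0.12), Nfkbia (1.34-fold, 0.42 ± 0.11), Tsc22d3 (1.17-fold, 0.22 ± 0.081) and Jund (1.09-fold, 0.13 ± 0.03). Klf13 was 1.48-fold lower at 10 h than at 2.5 h (-0.57 ± 0.038), and Stat3 was lower by 0.35 ± 0.11 (log2) on probe 9982 and by 0.09 ± 0.051 on probe 10313. Errfi1 differed by 0.01 ± 0.11. With 1 pool at each time there is no test of these differences.

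The pathways around the members were read through 7 gene lists from general knowledge. Over all tested probes, limma called 3.53% in the TSA pools and 2.01% with hours, in either direction. The size rule met 0.916%, 1.55%, 1.91% and 2.67% of all probes at the 4 times. No list was tested against these shares, so its counts are descriptions only. Of 38 measured AP-1 and other immediate early genes, 26 were tested, and limma called 1 higher and 0 lower in the TSA pools and 1 rising and 0 falling with hours. The median log2 fold of their brightest probes over the TSA pools was -0.02, as over all tested probes (-0.018). Fosl1, an AP-1 partner of Jun proteins, rose by 0.78 ± 0.13 (limma, adjusted p = 0.0474), from a control intensity of 0.23 that is close to the lower limit of 0.207 for testing. Elk1, which carries MAP kinase signals to immediate early promoters, rose at 0.0889 ± 0.013 per hour (limma, adjusted p = 0.0387), also from a dim 0.247. Nr4a2, an immediate early nuclear receptor, met the size rule at 7.5 h (1.02 ± 0.31), from a dim control intensity of 0.276. Nr4a1 and the brighter Btg1 and Arc stood at 0.15 ± 0.11, -0.15 ± 0.11 and -0.02 ± 0.13 over the 4 pools. The call of Fosl1 ended when any 1 of the 4 TSA pools or 6 of the 10 single arrays was left out (adjusted p of up to 0.162), and that of Elk1 with any 1 of the 5 pools or either 7.5 h array (up to 0.184). Without a TSA pool, however, the TSA test called only 3 to 5 of all 7422 probes. The trend called 0 without the control, 2.5 h or 10 h pool, and 41 and 31 without the 5 h and 7.5 h pools. A call that ended without a pool therefore says little about the single gene. With an offset of 0.25 in place of the floor, Fosl1 was at 0.43 (limma, adjusted p = 0.0553) and the slope of Elk1 at 0.0515 (0.0617), and with the pool as a random block Fosl1 had an adjusted p of 0.124.

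Of 30 measured genes of the glucocorticoid receptor, its cofactors and response genes, 22 were tested, and limma called 0 in either direction in both tests (3.53% and 2.01% of all probes). The median log2 fold over the TSA pools was -0.04. Ncoa1, a coactivator of nuclear receptors, met the size rule at 10 h (1.03 ± 0.11) without passing limma (0.78 ± 0.24 over the 4 pools, adjusted p = 0.107). The receptor chaperones Hsp90aa1 and Fkbp4 stood at -0.33 ± 0.11 and 0.29 ± 0.12 (limma, adjusted p = 0.127 and 0.163), and Glul, a glucocorticoid-raised gene in many tissues, at -0.09 ± 0.15. The lists do not hold the 7 members, so Tsc22d3 and Nfkbia are not among these counts.

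Of 25 measured genes of NF-kB and IkB, 14 were tested. Limma called 0 in the TSA pools against control (3.53% of all probes), and 2 fell with hours (2.01% of all probes were called in either direction). Rela, the p65 subunit that Nfkbia binds, fell at -0.112 ± 0.015 per hour (limma, adjusted p = 0.0268) and was -1.22 ± 0.16 below the control on the log2 scale at 10 h. Traf2, an adaptor of the TNF receptor, fell at -0.14 ± 0.017 per hour (limma, adjusted p = 0.0223), to -1.55 ± 0.14 at 10 h. Both genes were dim: Rela was at 0.722 in the control and 0.308 in its lowest pool, and Traf2 at 0.939 and 0.322. Nfkbib, the sister inhibitor of Nfkbia, stood at -0.27 ± 0.11 over the 4 pools (limma, adjusted p = 0.174), Birc2, an adaptor ligase of TNF signalling, at -0.07 ± 0.10 and Nfkbil1 at -0.20 ± 0.15. The median log2 fold of the list over the TSA pools was -0.22. The call of Rela ended without any 1 of the 5 pools (adjusted p of up to 0.187), and that of Traf2 without the control, the 2.5 h or the 10 h pool, or the second array at 7.5 h (up to 0.175). Without the control, the 2.5 h or the 10 h pool the trend called 0 of all 7422 probes, so those losses were not particular to these genes. The slope of Rela was -0.0731 with the offset (limma, adjusted p = 0.0328).

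Of 30 measured JAK, STAT and SOCS genes, 19 were tested. Limma called 0 with hours (2.01% of all probes), and 1 gene higher in the TSA pools (3.53% in either direction). This was Lif, a cytokine that signals through Stat3, which rose by 1.12 ± 0.16 (limma, adjusted p = 0.0439), higher in 4 of 4 pools and at least 2-fold at 2.5, 5 and 10 h. The call ended without any 1 of the 4 TSA pools (adjusted p of up to 0.0909), without 5 of the 10 single arrays, and with the pool as a random block (adjusted p = 0.0506). Without a TSA pool, only 3 to 5 of all 7422 probes were called in this test. Without the second control array the log2 fold was 0.717 (limma, adjusted p = 0.0507), and without the first it was 1.53 (0.0261). Stat4, a germ cell STAT in mice, stood at -0.35 ± 0.14 (limma, adjusted p = 0.167), and Pias1 and Pias2, which attach SUMO to STAT and other proteins, at 0.16 ± 0.15 and 0.15 ± 0.11. Lif was dim, at a control intensity of 0.46. The median log2 fold of the list was -0.02.

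Limma called 0 of 11 tested genes of the EGF receptor family, its ligands and adaptors and 0 of 9 KLF and SP factors in either test. Over all probes the shares were 3.53% for the TSA pools and 2.01% for the trend. Cbl, a ubiquitin ligase that removes the EGF receptor, met the size rule on the lower side at 7.5 h (-1.27 ± 0.32). It was dim, at 0.489 in the control and 0.205 in its lowest pool. The brighter Spry1, Map2k1 and Grb2, an inhibitor, a kinase and an adaptor of the receptor's pathway, stood at 0.13 ± 0.12, 0.41 ± 0.17 and -0.10 ± 0.22, and the list had a median of -0.10. The KLF and SP genes had a median log2 fold of 0.18 over the TSA pools, with Klf2, a factor of endothelial and T cells, at 0.36 ± 0.12 (limma, adjusted p = 0.112), Klf4, which is abundant in spermatids, at 0.18 ± 0.15 and Klf5 at 0.14 ± 0.17. Of 13 tested CCN, TGF-beta and YAP genes, limma called 0 in the TSA pools and 1 with hours: Yap1, the coactivator that drives Ccn2, fell at -0.112 ± 0.019 per hour (adjusted p = 0.0437) and was at -1.08 ± 0.056 at 10 h, when Ccn2 stood at 0.17 ± 0.13. Yap1 was dim, at 0.526 in the control and 0.249 in its lowest pool. Its call ended without any 1 of the 5 pools or 3 of the 10 single arrays, at limma adjusted p of up to 0.237. It also ended with the offset, where the slope was -0.0671 (limma, adjusted p = 0.0505). Without the control, the 2.5 h or the 10 h pool, the trend called 0 of all 7422 probes. Lrp1, a receptor that binds Ccn2, Ajuba, a partner of the Hippo pathway, and Tgfbr1 stood at 0.61 ± 0.22, 0.39 ± 0.15 and -0.05 ± 0.16, and the median of the list was 0.12. Each of the 6 calls in the lists ended when dim probes were kept (limma, adjusted p of 0.103 to 0.149) and with hours and a TSA term in 1 model (0.125 to 0.175). With dim probes kept, limma called 1 of all 9897 probes for the TSA pools and 0 for the trend. With both terms in 1 model it called 0 of 7422 in either test, so nearly every call ended there. The cause was not tested.

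**Figure D4:**
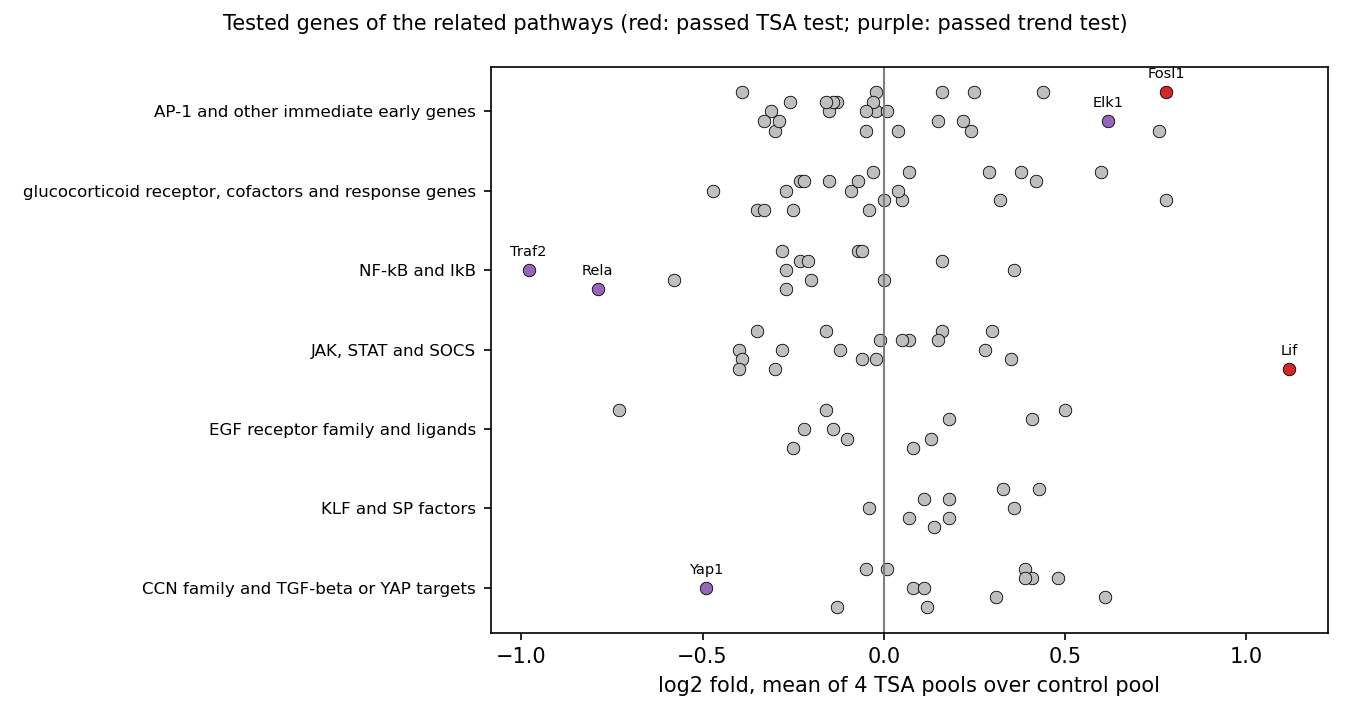
Log2 fold of the 4 TSA pools over the control pool for the brightest tested probe of each gene in the 7 lists, with red points for genes that passed the limma test of TSA pools and purple for those that passed the trend over hours. Lif at 1.12 and Fosl1 at 0.78 are the red points, and Elk1, Rela, Traf2 and Yap1 the purple ones.

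For members whose pool means spanned at least 0.5 on the log2 scale, the 3 most alike of the brighter probes were found by Pearson correlation over the 10 arrays, which come from 5 pools. Klf13 was most like Nfyb, a subunit of the CCAAT-binding factor NF-Y (r = 0.957), Snrnp25 (0.944) and Cks1b, a cyclin-dependent kinase subunit (0.936). Cks1b stood at 0.73, 0.39, 0.47 and 0.15 at the 4 times. Tsc22d3 was most like Pcbd2 (0.96), Npc2 (0.934) and the ribosomal protein gene Rplp1 (0.921), and Ccn2 like Slc35a5 (0.943), Kpna4 (0.935) and Pknox1 (0.921). Errfi1 resembled Actl11 (0.909), Herpud2 (0.906) and Npm1 (0.897). Stat3 probe 9982 was most like Spo11, which makes the DNA breaks of meiosis (0.962), 4930524B15Rik (0.959) and Smpd5 (0.949), and Spo11 stood at -0.25, -0.62, -0.46 and -0.64. The points share pools and the control, and each correlation was picked as among the highest of many probes, so they are descriptions only.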

How the data were processed

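Testis RNA of 5 pools of 3 mice was read on 10 CodeLink 1-channel arrays. The authors deposited linear intensity values. Each array has a median of 1, and once sorted all arrays hold identical values (largest difference 0), as quantile normalisation leaves them. How they were scanned, background-corrected and normalised was not given in the sources used here. Symbols came from the platform table, updated by gene ID (8975 probes matched).

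A floor at the 5th percentile (0.0364) was set, values were put on the log2 scale, arrays were shifted to a common median, and the dimmest 25% of probes were left out (mean intensity below 0.207). Duplicate arrays were averaged. limma 3.58.1 (R 4.3.3) was fitted on the 5 pool means with 3 residual degrees of freedom, two-sided, with p-values adjusted (Benjamini-Hochberg) across the 7422 probes and a limit of 0.05. In the test of TSA pools against control, the p-values measure the spread among the 4 TSA pools. Those were killed at different hours, so change over time is part of that spread. In the trend test they measure the spread of the 5 pools about the line. Errors at a single time are SE from duplicate arrays, which are technical. The number of pools, 1 in each group, limits the precision. Figures used matplotlib 3.10.9 in Python 3.11.15. The scripts were tested on simulated data.

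The members, lists and tests were chosen with earlier results of these data known. Named genes were all member probes, and from each list those that passed a test or met the size rule, the 3 brightest, and the 3 probes most alike each member. The marker lists are summed over all their measured probes.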

Additional observations from a re-analysis of the deposited data

Results flagged for a closer look

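Ccn2 at 2.5 and 7.5 h and Nfkbia at 2.5, 5 and 7.5 h had both arrays below both control arrays. Both genes had both arrays of the 10 h pool above them, while the 5 h arrays of Ccn2 overlapped the control. With 1 pool at each time the differences were not tested, and the share of all probes with this pattern was not counted. The 10 h fold of Ccn2 over the control was 0.0134 after centring by the order of probe IDs, and 0.0463 or 0.30 without the first or second control array. That of Nfkbia was 0.0391 or 0.136 with its first or second array alone. For Ccn2 the 10 h log2 fold exceeded that at 2.5 h by 0.56 and that at 7.5 h by 0.52. For Nfkbia it exceeded those at 2.5, 5 and 7.5 h by 0.42, 0.17 and 0.29. These folds share the control pool, though the differences between TSA pools do not depend on it.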

How the results depend on the processing

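In 424 refits of single member probes, 405 kept their direction and their side of the limit, 15 moved past it and 4 reversed. With no floor or no shift of arrays, member values and the count of member probes called (0 in both tests) did not change. The arrays already share a median and every member value lies above the floor, so these fits, though among the refits, were no check. The count was also 0 in both tests in every fit that left out 1 array or pool, with no filter and with the lowest 50% left out. It was 0 too with an offset of 0.25, after centring by the order of probe IDs and with the mean of a gene's probes. With hours and a TSA term together the count was 0 as well. Where a fit called few or no probes at all, as with no filter or without 1 pool, a count of 0 was all but fixed and no check. With the 10 arrays taken as independent it was 3 of 8 for the TSA pools and 3 for the trend, beside 35.8% and 31.7% of all probes, and with the replicate number as a block again 3 and 3, beside 32.2% and 28.4%. Both fits count technical arrays as samples. With the pool as a random block it was 2 for the TSA pools, beside 14.1%, and with eBayes with trend and robust 1, beside 10.7%. The random block allows for the likeness of duplicates by 1 correlation for all probes, but its degrees of freedom also come from the 10 arrays. A 1.5-fold size rule met 1 member probe at 5 h, Stat3 probe 9982, beside 9.84% of all probes. Over all probes the 262 calls for the TSA pools became 1 with no filter, 573 with the lowest 50% left out, 124 after centring and 0 with hours and a TSA term together. They became 5 to 495 when 1 array was left out and 3 to 5 when 1 pool was left out. The 149 calls for the trend became 0, 179, 202 and 0 under the same first 4 settings, 42 to 197 without 1 array and 0 to 41 without 1 pool. Leaving out 1 array or pool gave slopes of -0.0301 to 0.0575 for Ccn2, -0.0142 to 0.0455 for Nfkbia and -0.0695 to 0.0137 for Klf13; the first 2 reversed without the 10 h pool, and Klf13 without the 10 h or the 2.5 h pool. The cause was not tested. The replicate numbers name technical arrays and do not pair the pools: arrays of equal number had deviations with r of -0.187 to 0.14 across the 10 pool pairs. The limits are 1 control pool, no measure of spread between animals, and dim probes among the pathway genes.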
